A study of Mus musculus with 18 samples.

Results

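The transcripts of 10 genes that mark embryonic stem cells, Pou5f1, Nanog, Esrrb, Klf2, Klf4, Sall4, Zfp42, Tdgf1, Dppa3 and Dppa4, were followed in control and HPRT-knockdown ESD3 cells from the ES stage through the SNM stage to the neuronal stage. The genes were chosen by name, as every probe whose array symbol equals 1 of the 10 names. All 10 were found among 30869 gene symbols, with 20 of the 45281 probes. ESD3 is a mouse embryonic stem cell line of strain 129s2/SvPas, grown on primary mouse embryo fibroblast feeder cells with leukemia inhibitory factor (LIF) and bFGF. Control cells carried a virally delivered shRNA against luciferase and HPRT-knockdown cells one against HPRT, designed on the human gene, and both were selected with puromycin. SNM are the spherical neural masses from which dopaminergic neurons were then made. Purified RNA was pooled for each of the 6 conditions and hybridised to 3 Illumina MouseWG-6 v2 arrays per condition, 18 in all. SDs and p-values therefore speak of arrays hybridised with the same RNA, not of separate cultures, and the 2 shRNA lines are the only lines compared.

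Mouse embryonic stem cells hold their undifferentiated state through a small network of transcription factors that bind each other's regulatory regions. Pou5f1 (Oct4), Nanog and Sall4 stand near its centre, and Esrrb, Klf2 and Klf4 belong to the naive part of the network, which LIF and its effector Stat3 sustain. Zfp42 (Rex1), Tdgf1 (Cripto, the co-receptor of Nodal), Dppa3 (Stella) and Dppa4 are genes expressed in these cells that are widely used as their markers. When LIF is withdrawn and cells enter a neural fate, these transcripts are known to decline.

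Promoter sequences of 7 of the 10 genes, with 10 annotated starts, were present in the RefSeq set used (build GRCm38.p6); those of Dppa3, Dppa4 and Sall4 were not matched. The 250 bases upstream of the start are shown for Pou5f1, Nanog and Zfp42, the markers most often used (the first of 2 annotated starts for Pou5f1 and Nanog). Also shown are Tdgf1, with the largest knockdown difference of the 10 genes at the neuronal stage, and Klf4, whose profile differed most from the rest. Each is written 5′ to 3′ on the strand of its gene, and capitals mark matches on either strand to 3 short motifs. One is ATGCAAA, the core of the octamer that Pou5f1 binds. The next is GGGCGG, known as a GC box. The last is CACCC, the kind of element that Klf factors bind.
Pou5f1, chr17:35505782-35506031, plus strand: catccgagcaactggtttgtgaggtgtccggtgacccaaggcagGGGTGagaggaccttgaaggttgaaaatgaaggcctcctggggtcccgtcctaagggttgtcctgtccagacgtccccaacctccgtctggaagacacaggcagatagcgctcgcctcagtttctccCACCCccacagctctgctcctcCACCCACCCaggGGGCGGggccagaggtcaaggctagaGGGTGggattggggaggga
Nanog, chr6:122707239-122707488, plus strand: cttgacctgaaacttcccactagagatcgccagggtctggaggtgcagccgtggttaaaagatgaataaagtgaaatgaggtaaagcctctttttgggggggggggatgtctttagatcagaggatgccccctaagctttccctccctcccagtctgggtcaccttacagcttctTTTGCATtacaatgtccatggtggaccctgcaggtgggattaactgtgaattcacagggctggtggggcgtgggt
Zfp42, chr8:43307010-43307259, minus strand: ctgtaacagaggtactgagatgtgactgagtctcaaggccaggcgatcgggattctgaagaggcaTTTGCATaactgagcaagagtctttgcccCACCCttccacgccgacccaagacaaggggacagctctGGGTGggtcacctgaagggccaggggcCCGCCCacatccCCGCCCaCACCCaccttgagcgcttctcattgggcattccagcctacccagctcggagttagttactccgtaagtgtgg
Tdgf1, chr9:110946159-110946408, minus strand: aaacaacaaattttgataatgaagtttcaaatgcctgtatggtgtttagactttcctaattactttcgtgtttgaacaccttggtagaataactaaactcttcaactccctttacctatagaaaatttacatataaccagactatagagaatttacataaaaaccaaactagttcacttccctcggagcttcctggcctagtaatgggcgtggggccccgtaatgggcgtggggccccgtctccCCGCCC
Klf4, chr4:55532476-55532725, minus strand: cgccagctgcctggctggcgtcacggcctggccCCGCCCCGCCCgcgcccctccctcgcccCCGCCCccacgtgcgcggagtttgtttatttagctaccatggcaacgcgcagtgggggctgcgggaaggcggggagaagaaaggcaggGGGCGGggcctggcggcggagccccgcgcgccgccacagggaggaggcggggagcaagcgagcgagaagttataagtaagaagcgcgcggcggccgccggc

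The octamer core was present in 3 of the 10 promoters, both Nanog starts, whose windows share the site, and Zfp42, and in 4.12% of all 32851 promoters searched over the same length. In Zfp42 it began 185 bases and in Nanog 75 bases before the start. A GC box was present in 5 promoters (32.7% of all) and the CACCC element in 6 (52% of all), with 2 overlapping matches in Pou5f1. ACAAAG, the Sox core, was searched too and was in none of the 10 windows (16.5% of all), and AAGGTCA, the half-site of Esrrb, was likewise in none (4.08% of all). These are matches of letters and describe the windows only. Klf4 and Tdgf1 each held a GC box and no octamer core.

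Each array detected between 18827 and 22202 probes at a detection p-value under 0.05, and log2 signals of arrays of one condition correlated across probes between 0.992 and 0.997, probes not being independent replicates. The targeted gene, listed as Hprt1, was measured first. Its log2 signal on the knockdown arrays of the ES stage was 8.14, 7.96 and 7.75 against a control mean of 12.04, so that 5.88% of the control signal remained. Of the control signal 29.5% remained in spherical neural masses and 4.58% in neuronal cultures. The knockdown was thus present at each stage and shallowest at the SNM stage. Signals are given after background correction and quantile normalization, in log2 units with an offset of 16, which sets a floor of about 4 under every value.

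All 10 genes were detected on all 3 arrays of every condition, so each was tested in each comparison. At the ES stage, control and knockdown cells did not differ in any of the 10 beyond the thresholds. A call needed a difference of 1.5-fold or more and a p-value from limma, adjusted by Benjamini-Hochberg over all probes tested, that was under 0.05. Among all 18411 probes tested at this stage, 0.516% were called higher and 1.17% lower in the knockdown cells, so that no call among 10 genes is a count near the background. At an unadjusted p-value under 0.05, 4761 of all probes differed. The median difference of the 10 was 0.03 on the log2 scale, between -0.13 for Nanog and 0.48 for Dppa3, and over all probes it was 0.01. For 9 of them the 3 knockdown arrays overlapped the 3 control arrays. Nanog, a homeodomain factor near the centre of the network, gave 12.76, 12.64 and 12.63 on the control and 12.68, 12.44 and 12.52 on the knockdown arrays. Pou5f1 gave 12.27, 12.37 and 12.28 on the control and 12.43, 12.26 and 12.33 on the knockdown arrays, with a 95% interval of the difference from -0.13 to 0.19.

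Dppa3, a maternal and germline factor that protects methylated DNA, was the exception at the ES stage. Its signal was 7.60, 7.51 and 7.51 on control and 7.97, 8.05 and 8.03 on knockdown arrays, and the groups did not overlap, as for 31.6% of all probes at this stage. The difference of 0.48 (standard error 0.12, adjusted p = 0.0169 from limma) was 1.39-fold and did not reach the minimum fold. Its signals lay near the floor at the later stages, where the offset compresses fold changes.

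**Figure D1:**
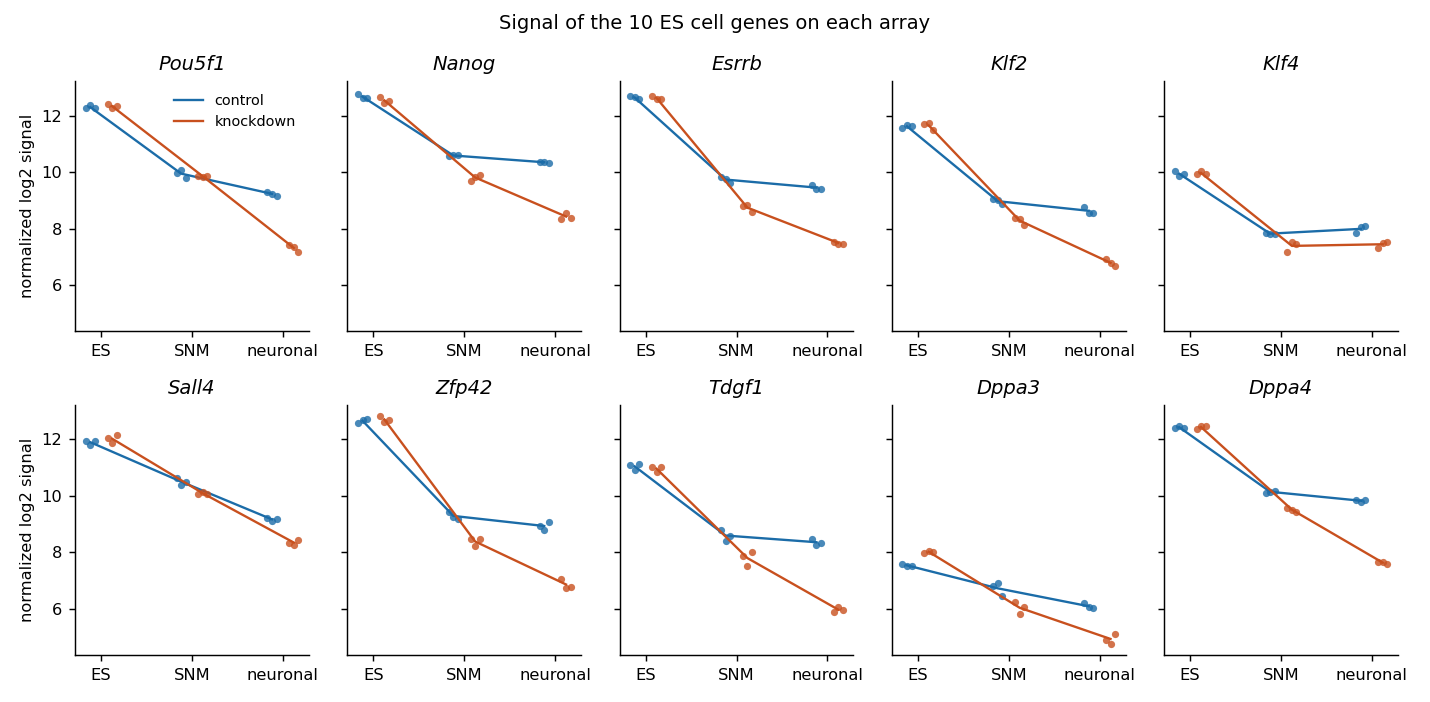
Normalized log2 signal (y axis) of the brightest probe of each gene at the 3 stages (x axis) in control (blue) and HPRT-knockdown (orange) cells; points are single arrays, 3 per condition from one RNA pool, and lines join the means. At the ES stage the colours coincide for 9 genes, and at the neuronal stage the knockdown arrays lie below the control arrays for all 10.

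From the ES to the SNM stage, all 10 genes fell in control cells, where 25.4% of all probes were called lower, and all 10 fell in knockdown cells, where 30.9% were called lower. The median fall was a log2 change of -2.32 in control cells and -2.83 in knockdown cells, against -0.08 and -0.11 over all probes. In control cells the falls ranged from -0.81 for Dppa3, no longer called with 75th-percentile scaling (-0.58) or without scaling between arrays (-0.40), to -3.37 for Zfp42, a zinc finger protein whose loss is the classical sign that embryonic stem cells leave the undifferentiated state. The Zfp42 signal was 12.59, 12.70 and 12.71 on control arrays at the ES stage and 9.42, 9.26 and 9.19 at the SNM stage. In knockdown cells it was 12.83, 12.61 and 12.70, then 8.46, 8.22 and 8.47. No array of the SNM stage overlapped an array of the ES stage for any of the 10 genes in either line. The share of all probes without overlap was not taken for this step, so this count has no background beside it. At an unadjusted p-value under 0.05 from limma, 15992 of 20703 probes tested differed in control cells and 17575 of 21467 in knockdown cells.

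From the SNM to the neuronal stage 3 of the 10 genes fell further in control cells, where 15.1% of all probes were called lower. These were Sall4 (log2 change -1.34, standard error 0.08, adjusted p = 5.05e-10 from limma), Pou5f1 (-0.72, 0.08, 5.19e-07) and Dppa3 (-0.63, 0.12, 0.000226). Differences of the other 7 ranged from -0.36 for Zfp42 to 0.17 for Klf4, and the median of the 10 was -0.33. The call of Dppa3 was lost without control array 2 of the SNM stage (-0.55), and with quantile normalization (-0.40) or 75th-percentile scaling (-0.43) that leave the background in the signals. In knockdown cells 9 of the 10 fell, where 14.8% of all probes were called lower, with a median of -1.51 over the 10 genes. Pou5f1 fell most, with a log2 change of -2.53, from 9.88, 9.82 and 9.85 to 7.42, 7.35 and 7.19. Klf4 gave 7.19, 7.53 and 7.46 in spherical neural masses and 7.31, 7.51 and 7.53 in neuronal cultures, which overlap (difference 0.06, adjusted p = 0.603 from limma).

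Over the whole course, from the ES to the neuronal stage, all 10 genes fell in both lines. The log2 changes had a median of -2.71 in control cultures and -4.83 in knockdown cultures, while 33.4% and 33.7% of all probes were called lower. The range was -1.45 (Dppa3) to -3.73 (Zfp42) in control cells and -2.52 (Klf4) to -5.85 (Zfp42) in knockdown cells. RNA was taken from whole cultures, in which fewer cells of a type and less RNA per cell cannot be told apart.

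Expressed as the share of each line's own ES-stage signal, the median of the 10 genes in control cells was 20.0% ± 0.69 (SD over 3 arrays of one RNA pool) in spherical neural masses and 15.3% ± 0.77 in neuronal cultures. In knockdown cells it was 14.1% ± 0.27 and 3.51% ± 0.20. The control cultures thus kept most of what was left at the SNM stage, and the knockdown cultures did not. Pou5f1 kept 19.5% and then 11.9% of its ES-stage signal in control cells, and 17.8% and then 3.08% in knockdown cells. Nanog kept 23.6% and 20.0% in control, and 15.05% and 5.77% in knockdown cells. Zfp42, with the smallest shares, kept 9.65% and 7.54% in control, and 4.99% and 1.74% in knockdown cells. Shares at or above 10% in knockdown cells of the neuronal stage were those of Klf4 (17.4%) and Dppa3 (11.8%). With the offset of 16 subtracted, which bears most on dim genes, the Dppa3 share there was 5.99%.

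**Figure D2:**
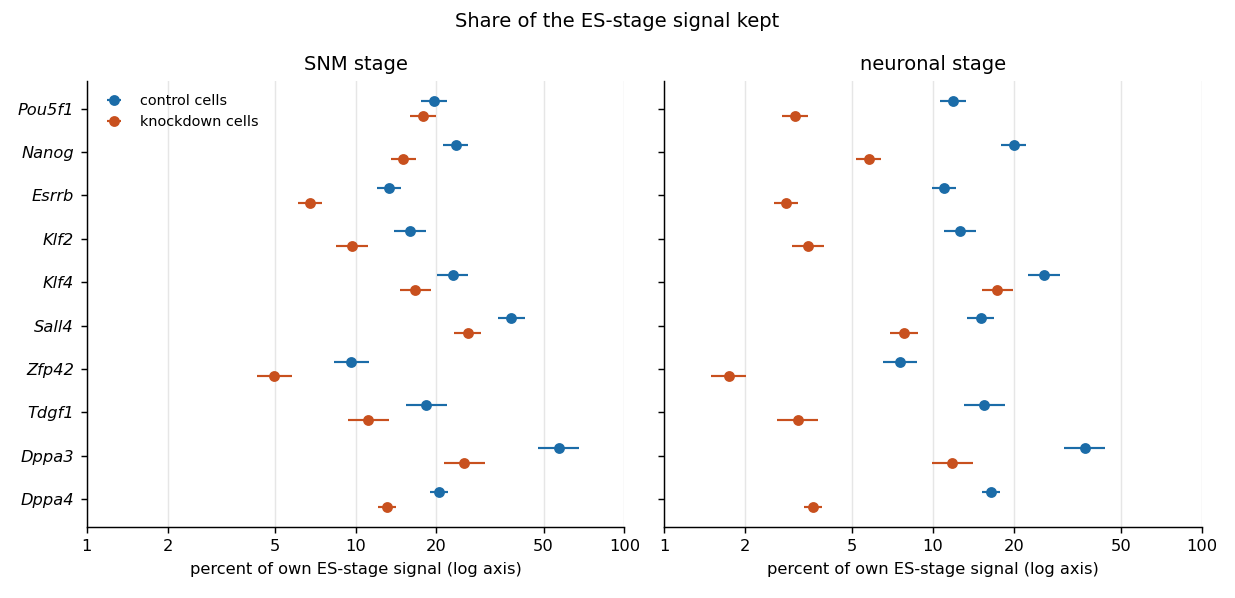
Percent of the ES-stage signal of the same line that remained (x axis, log scale) for each gene at the SNM stage (left) and the neuronal stage (right) in control (blue) and knockdown (orange) cells; points are ratios of means on the log2 scale over 3 arrays and bars 95% intervals from limma. At the neuronal stage the 2 intervals of a gene are apart for all 10 genes, and at the SNM stage those of Pou5f1 overlap.

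The order of the 6 conditions was the same for 7 of the 10 genes, Nanog, Esrrb, Klf2, Zfp42, Tdgf1, Dppa3 and Dppa4, when the order of the 2 ES conditions is left aside. These stood first, followed by control SNM, control neuronal, knockdown SNM and knockdown neuronal cultures. Knockdown cultures of the SNM stage thus already lay below control cultures of the neuronal stage for these genes. Neighbours whose arrays overlapped were control SNM and control neuronal for Tdgf1, control neuronal and knockdown SNM for Dppa3, and the 2 ES conditions for each of the 7 but Dppa3. For Pou5f1 and Sall4 both SNM conditions stood above both neuronal ones. Klf4 had its lowest mean in knockdown cells of the SNM stage, whose arrays overlapped those of knockdown cells of the neuronal stage, while the lowest condition was the knockdown neuronal one for the other 9.

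Knockdown and control cells were then compared within the differentiated stages. At the SNM stage 7 of the 10 genes were lower in the knockdown cells, where 8.9% of all probes tested were called lower and 11% higher. The median difference was -0.69 on the log2 scale, against -0.04 over all probes. The arrays of the lines did not overlap for 9 genes, as for 56.1% of all probes at this stage. Esrrb, an orphan nuclear receptor, differed most, with 9.82, 9.77 and 9.63 on control and 8.79, 8.84 and 8.60 on knockdown arrays (log2 difference -0.99, standard error 0.07, adjusted p = 8.61e-09 from limma). Averaged with its second probe, which was detected in no condition, the difference was -0.56 and no longer called. Zfp42 (-0.91), Tdgf1 (-0.80), Nanog (-0.78), Dppa3 (-0.69), Klf2 (-0.69) and Dppa4 (-0.63) were lower as well. The call of Dppa3 was lost without 1 array, knockdown array 2 of the SNM stage, where its difference was -0.57, and with either scaling that leaves the background in the signals (-0.43 and -0.44).

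Pou5f1 stood apart at the SNM stage, with 9.96, 10.08 and 9.81 on control and 9.88, 9.82 and 9.85 on knockdown arrays. Its difference of -0.10 (95% interval -0.26 to 0.06, adjusted p = 0.283 from limma) lay within the spread of the arrays, and its second probe gave -0.07. Klf4 (-0.43, adjusted p = 0.000814 from limma) and Sall4 (-0.41, adjusted p = 0.000358) were lower by less than 1.5-fold, with no overlap of arrays. Sall4, a zinc finger partner of Pou5f1 and Nanog, also kept 38.0% of its ES-stage signal at this stage in control and 26.1% in knockdown cells.

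At the neuronal stage 9 of the 10 genes were lower in the knockdown cells, where 13.5% of all probes tested were called lower and 13.9% higher. The median difference was -1.92 on the log2 scale, against 0.01 over all probes. No gene had overlapping arrays, which held for 62.8% of all probes. Tdgf1 differed most, with 8.48, 8.28 and 8.32 on control and 5.90, 6.06 and 5.96 on knockdown arrays, a log2 difference of -2.39 (standard error 0.12, adjusted p = 5.64e-11 from limma) or 5.23-fold. Dppa4, a nuclear protein of early embryonic cells, gave 9.84, 9.79 and 9.85 on control and 7.68, 7.65 and 7.58 on knockdown arrays (-2.19, standard error 0.05, adjusted p = 4.94e-15 from limma).

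Of the 6 transcription factors at the centre and in the naive part of the network, Pou5f1 (-1.92), Nanog (-1.92), Esrrb (-1.96) and Klf2 (-1.84), a Krüppel-like factor, were lower by 3.59-fold to 3.89-fold, and Sall4 and Klf4 had smaller differences. For Pou5f1 the arrays gave 9.31, 9.24 and 9.16 in control and 7.42, 7.35 and 7.19 in knockdown cells. For Nanog they gave 10.37, 10.37 and 10.31 in control and 8.36, 8.57 and 8.36 in knockdown cells. Sall4 was lower, with 9.22, 9.12 and 9.17 on control and 8.33, 8.27 and 8.44 on knockdown arrays (-0.82, standard error 0.08, adjusted p = 1.74e-07 from limma), and its call was lost with the mean of its 3 probes (-0.48), of which the third was detected on no array of this stage. Among the markers, Zfp42 differed by -2.07 and Dppa3 by -1.16 on the log2 scale. Without background correction the Dppa3 difference was -0.57 and no longer called (quantile normalization).

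Klf4, the Krüppel-like factor that is also expressed in many differentiated cell types, was the gene not called. Its arrays gave 7.84, 8.06 and 8.09 in control and 7.31, 7.51 and 7.53 in knockdown cells. The difference of -0.55 (95% interval -0.74 to -0.35, adjusted p = 7.89e-05 from limma) was 1.46-fold, just under the minimum. Leaving out control array 1 or knockdown array 3 of the neuronal stage brought it past the minimum, to -0.62 and -0.59.

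**Figure D3:**
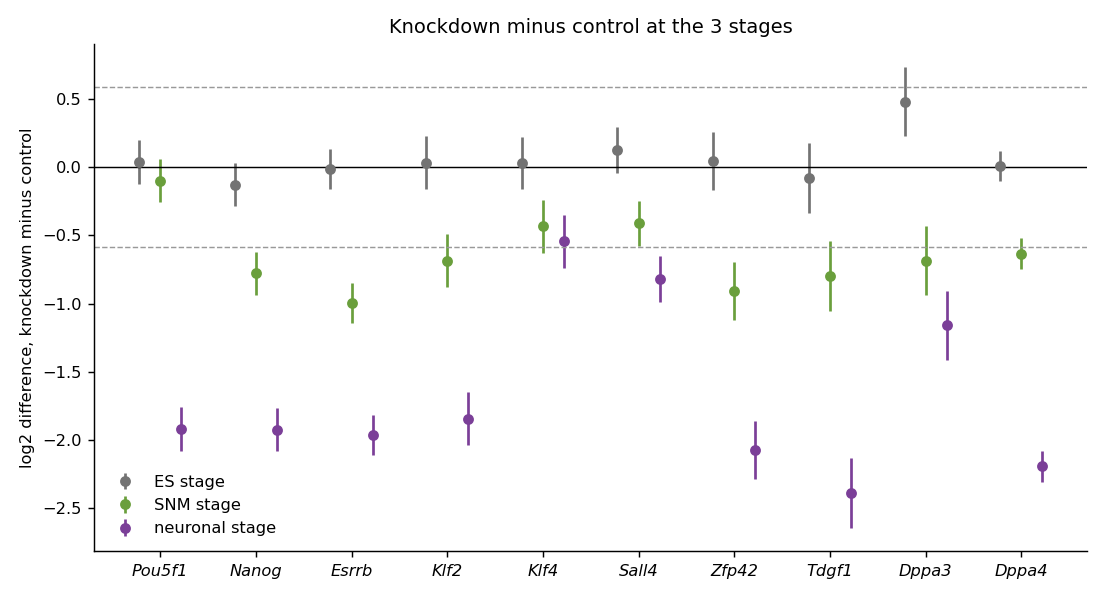
Log2 difference of knockdown minus control cells (y axis) for each gene (x axis) at the ES (grey), SNM (green) and neuronal (violet) stage; points are limma estimates over 3 arrays per condition, bars 95% intervals, and dashed lines mark 1.5-fold. Pou5f1 lies at -0.10 in SNM and at -1.92 in neuronal cultures, and the points of Klf4 lie between the dashed lines at all stages.

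Whether the knockdown difference itself changed between stages was tested with interaction terms in the same limma model. From the ES to the SNM stage it moved downward for 7 of the 10 genes, where 9.61% of all probes were called lower, from -0.64 for Dppa4 to -1.17 for Dppa3. In this step Nanog was no longer called without knockdown array 1 of the ES stage (-0.58), nor Tdgf1 without knockdown array 2 of the SNM stage (-0.57), and Sall4 (-0.54) was called without knockdown array 2 of the ES stage (-0.62) or control array 2 of the SNM stage (-0.59). From the SNM to the neuronal stage it moved downward for 7, where 14.8% of all probes were called lower, and Pou5f1 moved most (-1.82, standard error 0.11, adjusted p = 7.17e-10 from limma). The 3 not called in this step were Klf4 (-0.11), Sall4 (-0.41) and Dppa3 (-0.47), the last of which was called without knockdown array 2 of the SNM stage (-0.59). From the ES to the neuronal stage it moved downward for 9, where 13% of all probes were called lower, all but Klf4 (-0.57, adjusted p = 0.00166 from limma), which 6 of the fits that left out 1 array called (range -0.65 to -0.50). This last term is also the ratio of the shares kept. The share of Tdgf1 kept in knockdown cells was 20.2% of that kept in control cells, the share of Pou5f1 25.9%, that of Sall4 51.9% and that of Klf4 67.2%. Nanog, Esrrb, Klf2, Zfp42, Tdgf1 and Dppa4 were called in all 3 terms. The 3 comparisons share arrays, so their counts are not independent. Hprt1 was also followed across stages, and its own knockdown difference was -4.09 in ES cells, -1.76 in SNM and -4.45 in neuronal cultures.

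The 6 genes with several probes had 10 further probes under the same symbols, not all designed on the same transcript record. In the comparison of the neuronal stage 7 of these were tested and 6 were lower in knockdown cells, where 13.5% of all probes were called lower. The second probes of Pou5f1 (-1.79), Nanog (-1.55), Dppa4 (-1.88) and Sall4 (-0.71) and the remaining 2 of Dppa4 (-1.12 and -0.97) were called, and the second of Klf4 was at -0.49. At the SNM stage 2 of 7 tested were lower, the second of Nanog and the second of Dppa4 (-1.04), against 8.9% of all probes. The others of Dppa4 gave -0.38 and -0.55 there. At the ES stage none of 9 tested was called, a count near the background of 1.17% of all probes called lower and 0.516% higher. The second probe of Esrrb was detected in no condition and is not a measure of the gene's level. Klf2, Zfp42, Tdgf1 and Dppa3 each rest on 1 probe.

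Other genes of the network and of its signals were taken from 3 lists. At the neuronal stage 13.5% of all probes tested were called lower and 13.9% higher in knockdown cells. The shares at the ES stage were 1.17% and 0.516%. Of 20 further pluripotency transcription factors, 15 were tested at the neuronal stage, where 10 were lower and 1 higher in knockdown cells, with a median log2 difference of -0.92. Among the largest were Tcea3 (-2.17), Zscan4c (-1.55), Mybl2 (-1.45), a cell cycle factor of the Myb family, and Nr5a2 (-1.38), an orphan nuclear receptor that binds the Pou5f1 gene. Zscan4c and Nr5a2 were detected on 2 of the 3 knockdown arrays, which makes their differences bounds, at least 2.92-fold and at least 2.57-fold. At the ES stage none of 17 was called. At the SNM stage 2 of 15 were lower, Gbx2 (-2.28) and Tcfcp2l1 (-0.76), and 2 were higher, Tbx3 (1.34) and Tcea3 (0.66), counts near the background of 8.9% of all probes called lower and 11% higher. Tcea3 thus differed in opposite directions at the SNM and neuronal stages.

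Of 33 ES cell-enriched markers and targets, 30 were tested at the neuronal stage, where 21 were lower and 2 higher in knockdown cells, with a median of -0.81. Among all probes 13.5% were called lower and 13.9% higher. Tdh, the threonine dehydrogenase of mouse embryonic stem cells, was at -2.09, Gdf3, a growth factor of the TGF-beta family, at -2.08, L1td1 at -2.04, Lefty2, an inhibitor of Nodal, at -1.97, and Upp1, a uridine phosphorylase, at -1.83. At the SNM stage 12 of 30 were lower and 3 higher, where 8.9% of all probes were called lower and 11% higher. The count of 3 higher is near that background. Tex19.1 was at -2.28, Fbxo15 at -1.18, Tdh at -1.16, Lin28 at -1.12 and Spp1, osteopontin, higher by 1.09. At the ES stage 1 of 32 was called, Rex2 at -1.04, where 1.17% of all probes were called lower. The summed signal of this list did not follow its counts. At the neuronal stage it was between 38450 and 38707 on control and between 43251 and 43624 on knockdown arrays, a sum that its brightest probes set.

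The 17 genes of LIF, Stat3 and BMP signalling took another course. At the neuronal stage 7 were higher and 1 lower in knockdown cells, with a median of 0.31, where 13.9% of all probes were called higher and 13.5% lower. Pim3, a kinase gene that Stat3 activates, was higher by 2.11, the ligand gene Bmp4 by 1.75, Myc by 1.14, Bcl3 by 1.09 and Junb by 1.07 on the log2 scale. Pim3 differed in the opposite direction at the SNM stage (-0.73). Il6st, which encodes the gp130 receptor subunit that LIF uses, was higher by 0.64 at the SNM stage, and Myc was lower at the ES stage (-0.64). In control cells 6 of the 17 rose and 6 fell from the ES to the neuronal stage, where 27.8% of all probes were called higher and 33.4% lower, so that these counts are near the background. In knockdown cells 9 rose and 3 fell, where 30% were called higher and 33.7% lower. Socs3, the feedback inhibitor of Stat3, fell in control cells (-2.14), as did Pim3 (-1.92) and Bcl3 (-1.69). The mean Pim3 signal was 12.45 in control ES cells, 10.52 in control neuronal and 12.63 in knockdown neuronal cultures. Bmp4 (1.91) and Bmpr1a (1.68) rose in knockdown cells, and Lifr fell there (-1.58). Id2, a BMP target, rose in both lines (2.54 in control and 3.45 in knockdown cells), as did Id3 (1.77 and 1.94).

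In the same comparison of stages, all 16 of the further pluripotency factors tested fell in control cells and 16 of 17 in knockdown cells, with medians of -2.27 and -3.47. Among all probes 33.4% were called lower in control and 33.7% in knockdown cells. Of 32 ES cell-enriched genes 30 fell in control and 29 in knockdown cells, with medians of -2.42 and -3.01. Tex19.1, a gene of germ cells and early embryos, changed most on that list in both lines, with a log2 change of -4.19 in control and -6.13 in knockdown cells.

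Markers of other cells that the cultures could hold moved between the same conditions. At the neuronal stage 13.5% of all probes tested were called lower and 13.9% higher in knockdown cells. The share called lower at the ES stage was 1.17%. Of 20 fibroblast markers, which the feeder cells express, 13 were lower and 2 higher in knockdown cells at the neuronal stage (median -0.73). Their summed signal was between 59902 and 63764 on control and between 41486 and 44278 on knockdown arrays, with all 20 detected. At the ES stage 4 of 14 tested were lower, the sums were between 6587 and 6976 and between 5016 and 5398, and Col1a1, Col6a2, Lum, Postn and Pdgfrb were not detected in either line. Of 14 germ cell markers, a cell type that also expresses Dppa3 and Pou5f1, 5 were tested at the neuronal stage and all 5 were lower in knockdown cells. Their sums were between 2248 and 2286 on control and between 1048 and 1092 on knockdown arrays. Of the 14, 5 were detected on all 3 control arrays and 4 on all 3 knockdown arrays. Ddx4, Prdm1, Sycp3 and Mael were detected in neither line, and Nanos3 and Nanos2 on no knockdown array.

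Of the neuron markers tested from the ES to the neuronal stage, 10 of 11 rose in control cells, and 7 of 10 rose and 2 fell in knockdown cells. Of all probes, 27.8% were called higher in control cells, and 30% higher and 33.7% lower in knockdown cells. Of all 13 neuron markers, 7 of 11 tested were lower and none higher in knockdown cells at the neuronal stage (median -1.97). In this comparison, also used for the lists that follow, 13.5% of all probes were called lower and 13.9% higher. Differences of the neuron markers ranged from -3.57 for Ina to 0.28 for Gap43, and 4 of the 11 were not called. Their sums were between 13642 and 15100 on control and between 7821 and 9116 on knockdown arrays, with Snap25 and Nefl detected in neither line on these probes. Of 13 endoderm markers 6 of 11 tested were higher and none lower (median 0.61), with sums between 4058 and 4538 and between 4631 and 5106, and Gata4 and Afp detected in neither. Of 14 endothelial markers 4 of 9 tested were lower and 3 higher (sums between 4447 and 4598 and between 1931 and 2029), with Tie1 detected on no control array and Kdr, Cldn5, Eng, Sox18 and Robo4 on no knockdown array. Of 10 neural progenitor markers 4 of 7 were lower and 1 higher (sums between 6888 and 7434 and between 6892 and 7589), with Sox1 and Msi1 detected in neither. The part of these cells in the differences of the pluripotency genes was not tested.

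**Figure D4:**
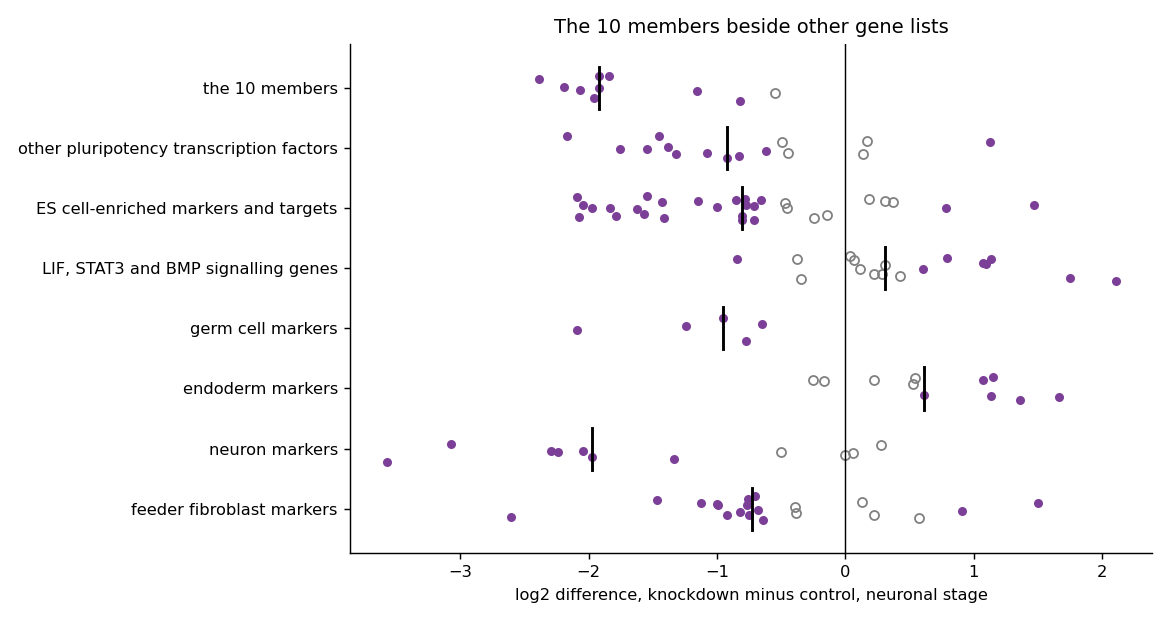
Log2 difference of knockdown minus control cells at the neuronal stage (x axis) for the 10 genes and 7 other gene lists (y axis); each point is the brightest probe of a gene, filled where called, and bars are medians. The 10 genes have a median of -1.92, neuron markers of -1.97 and the LIF, Stat3 and BMP genes of 0.31.

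Across the 18 arrays, each gene's profile was set against the mean standardised profile of the other 9. Pearson's r was between 0.925 for Klf4 and 0.997 for Klf2, with 0.956 for Sall4, 0.971 for Dppa3 and 0.980 for Pou5f1. Of 11457 other genes compared with the mean profile of the 10, the nearest were L1td1 (r = 0.998), Gdf3 (0.997), Lefty2 (0.996), Mybl2 (0.996), Pla2g10 (0.995), Epb4.1l4a (0.994), Eras (0.994), Phc1 (0.994), Coil (0.993) and Znrf2 (0.992). Of these, 6 belong to the lists above. The arrays fall into 6 conditions with 3 arrays of one pool each, so these values describe likeness over 6 conditions and carry no p-value.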

How the data were processed

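The authors pooled purified RNA for each condition and hybridised 3 arrays per pool. They deposited, for each of 45281 probes and 18 arrays, a bead-averaged signal intensity with neither background subtraction nor normalization, beside a detection p-value. Probe symbols came from a second deposited table, whose 72 columns of per-sample values carry chip and position names that are not paired with samples and were not used. No arrays held identical values.

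Signals were processed by the neqc function (limma 3.58.1, R 4.3.3: background from the detection p-values, offset 16, quantile normalization, log2), and 1 model with the 6 conditions was fitted with lmFit and eBayes. Probes entered a test if 1 or more of the conditions compared had detection p-values under 0.05 throughout its 3 arrays. A call required 1.5-fold and, after Benjamini-Hochberg adjustment over the probes tested, p under 0.05. Tests are two-sided; with 3 arrays against 3, the smallest p of an exact permutation test is 0.1. A gene is represented by its brightest probe over all arrays. The fit was tested on simulated data. The number of arrays limits the precision. Genome build and scanner settings of the array annotation are not given in the sources used here.

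The 10 genes and the lists were chosen with earlier results of these data known. Named are all 10 genes and Hprt1. From 3 lists, up to 5 genes are named with the largest called difference whose arrays do not overlap in each knockdown comparison. Of the genes that the same rule gives from the ES to the neuronal stage, only some are named. A gene that this rule names is not reported here. Array numbers come from the sample titles. Arrays of equal number varied together, with every correlation of their deviations over 0.1, in 3 of the 9 comparisons of 2 conditions: knockdown against control at the SNM stage (0.49, 0.11 and 0.49), and knockdown neuronal against knockdown SNM (0.52, 0.14 and 0.51) and ES stage (0.41, 0.11 and 0.34). The alternatives were other scalings and background settings, detection filters, the number as a block, fewer conditions in the fit, a 2-fold minimum, the mean of all probes, the methods' t-test and leaving out each array. Figures were drawn with matplotlib.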

Additional observations from a re-analysis of the deposited data

Results flagged for a closer look

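The difference between knockdown and control cells changed between stages for the following genes, by interaction terms in limma (log2 scale, adjusted over all probes tested, a negative value meaning that knockdown cells moved lower relative to control cells). Between the ES and the SNM stage it changed by -0.65 for Nanog, -0.98 for Esrrb, -0.72 for Klf2, -0.95 for Zfp42, -0.72 for Tdgf1, -1.17 for Dppa3 and -0.64 for Dppa4.

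Between the SNM and the neuronal stage it changed by -1.82 for Pou5f1, -1.14 for Nanog, -0.96 for Esrrb, -1.16 for Klf2, -1.16 for Zfp42, -1.59 for Tdgf1 and -1.56 for Dppa4. Pou5f1 was the one gene called in this step that had not been called in the step before.

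Between the ES and the neuronal stage it changed by -1.95 for Pou5f1, -1.79 for Nanog, -1.94 for Esrrb, -1.87 for Klf2, -2.12 for Zfp42, -2.31 for Tdgf1, -1.64 for Dppa3, -2.20 for Dppa4 and -0.95 for Sall4. With 3 arrays per condition, single arrays were not examined as outliers.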

How the results depend on the processing

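All values rest on 3 arrays of 1 RNA pool per condition, and the offset compresses folds of dim signals. Of the counts of the 10 genes called, those that moved by more than 1.5 times did so under a 2-fold minimum: 1 in control cells from the SNM to the neuronal stage, 0 between the lines at the SNM stage and 1 for the knockdown effect from the ES to the SNM stage. Under every other alternative they stayed within 1.5 times. The median share kept in control cells at the SNM stage was 20.8% with quantile normalization and 17.8% with 75th-percentile scaling, both without background correction, and 18.1% with the mean of all probes. At the neuronal stage of control cells it was 16.6% and 13.4% with these scalings. In knockdown cells it was 14.8% and 11.9% with them, and 13.4% without scaling between arrays, in spherical neural masses. Knockdown cultures of the neuronal stage kept 5.13% and 4.37% with them, 4.63% with the mean of all probes and 3.13% with the offset subtracted. The share was lower in knockdown than in control cells in each case.

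The knockdown difference at the ES stage, close to 0 for most genes, changed sign without a call for Esrrb without scaling between arrays (0.032) and, with the mean of all probes, for Nanog (0.023), Esrrb (0.0084), Klf4 (-0.0096) and Dppa4 (-0.10). Without 1 array it ranged from -0.044 to 0.0048 for Esrrb, -0.014 to 0.043 for Dppa4, -0.010 to 0.073 for Pou5f1, -0.014 to 0.097 for Zfp42, -0.012 to 0.078 for Klf4 and -0.014 to 0.10 for Klf2, and the Klf4 change of knockdown cells from the SNM to the neuronal stage from -0.043 to 0.13. With the replicate number as a block, 7 of the 10 genes were called at the SNM stage and 9 in knockdown cells from the SNM to the neuronal stage, and this pairing changed no call of the 10 genes in any comparison. Further calls were ended for Dppa3 in knockdown cells from the SNM to the neuronal stage by quantile normalization without background correction (-0.54), and for the change of the knockdown effect by the mean of all probes: Esrrb (-0.57) and Dppa4 (-0.55) from the ES to the SNM stage, Esrrb (-0.39) from the SNM to the neuronal stage and Sall4 (-0.57) from the ES to the neuronal stage. The methods' t-test, which has no form for the change of the knockdown effect between stages, called the same number of genes unadjusted and, after Benjamini-Hochberg, 1 fewer at the SNM stage (Dppa3, -0.69). Without scaling between arrays the median of all probes moved by up to 0.28 on the log2 scale.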
